A study of Mus musculus with 4 samples.

Results

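Pi16 Dpp4-negative fibroblasts were the cells of mouse mammary tumors that carried fibroblast RNA but no unique molecular identifier (UMI, the tag that counts 1 captured RNA molecule) of Pi16 or Dpp4. Among barcodes with at least 2000 UMIs, of which at most 20% were mitochondrial, the rule asked for at least 20 UMIs of Col1a1, Col1a2, Col3a1 and Dcn per 10000 and fewer than 5 of Epcam, Krt8 and Krt18 per 10000. It also asked for at least 1 UMI of Pdgfra or Lum, none of Ptprc, Pecam1 or Rgs5, and none of Pi16 or Dpp4. It chose 132 of 20892 barcodes, or 0.632%, which were 13.8% of the 960 fibroblasts that met every other condition. The other 828 are called Pi16 Dpp4-positive fibroblasts below. The cells were thus chosen by these measured values, and the absence of Pi16, Dpp4, immune, endothelial and pericyte tags is part of that choice and not a result.

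The tumors came from PyMT mice, in which a viral oncogene is expressed in the mammary gland, with both copies of Frmd8 floxed. The Cre- group was MMTV-Cre-; Frmd8fl/fl; PyMT (replicates 1 and 3) and the Cre+ group was MMTV-Cre+; Frmd8fl/fl; PyMT (replicates 2 and 4). The breeding gave the genotypes as littermates, all 4 mice carried the oncogene and the floxed alleles, and the study's endpoint was 17 to 18 weeks. Each library held sorted cells of 1 tumor sample, read from the 3' end of the RNA by droplet sequencing. The MMTV promoter drives Cre in luminal epithelium, so the fibroblasts themselves are not its intended target, and the 3' counts do not read the deleted exons. Here and below, a run of 4 values gives the Cre- libraries first (replicates 1 and 3) and then the Cre+ libraries (replicates 2 and 4). The total depth was 122658098, 126843597, 112729231 and 157662955 UMIs. Replicate 4 was deposited with all 2582424 barcodes while replicates 1, 3 and 2 were deposited as 7020, 8017 and 7411 called cells. Its counts also appear to come from Cell Ranger 4, and those of the others from Cell Ranger 6.1.2. These differences fall on 1 of the Cre+ mice and cannot be told apart from that mouse.

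Fibroblasts build and remodel the collagen matrix of the mammary gland. Those that express Pi16 and Dpp4 are known as adventitial fibroblasts, which line vessels and ducts and are regarded as a reservoir for other fibroblasts. In tumors, fibroblasts can take up a contractile myofibroblast program, with smooth muscle actin and matrix proteins such as periostin and tenascin C, or an inflammatory program of cytokines, chemokines and complement. The label was checked with fibroblast genes that the rule did not use. All 20 of them were detected in the summed cells, for example Pdgfrb, the receptor for platelet-derived growth factor B, at 241, 180, 146 and 104 UMIs per 1000000 (CPM) and Thy1, a surface glycoprotein, at 634, 374, 274 and 215 CPM. For the collagens of the rule the values were 11124, 10990, 10669 and 5519 CPM (Col1a1) and for Lum, a small matrix proteoglycan, 1474, 920, 1035 and 1955 CPM. As a sum the cells of each library carried these fibroblast genes, but 26 cells, described below, went against the label. Those 26 gave 31.0%, 3.47%, 29.4% and 33.7% of the summed UMIs.

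The rule found 54, 38, 27 and 13 cells. As a share of all barcodes these were 1.20% (95% exact Clopper-Pearson interval 0.903 to 1.56), 0.734% (0.520 to 1.01), 0.523% (0.345 to 0.760) and 0.215% (0.114 to 0.367), where the intervals cover counting error only. Both Cre+ libraries held a lower share than both Cre- libraries. The Cre- mean was 0.967% ± 0.329 (SD, n = 2) and that of Cre+ was 0.369% ± 0.218 (SD, n = 2), with p = 0.33 by a two-sided exact permutation test, the smallest p that 2 mice against 2 allow. At an equal depth of 2000 UMIs per cell, where more cells lack a Pi16 or Dpp4 UMI, the shares were 1.53%, 1.93%, 1.70% and 0.545%, and the genotypes overlapped (two-sided exact permutation p = 0.67). As a share of fibroblasts the cells made up 27.7%, 13.5%, 6.96% and 13.5%, where Cre- replicate 3 and Cre+ replicate 4 were alike and the genotypes overlapped (two-sided exact permutation p = 0.67). They did not overlap at the equal depth (40.6%, 39.2%, 21.8% and 33.3%), under the study's upper limits on genes and UMIs (22.1%, 18.9%, 13.9% and 14.1%), with an epithelial limit of 2 per 10000 or without cells that had Sox10 or Trp63. They overlapped over cells with at least 5000 UMIs, over those with at least 10000 UMIs and with doublet calls removed.

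**Figure D1:**
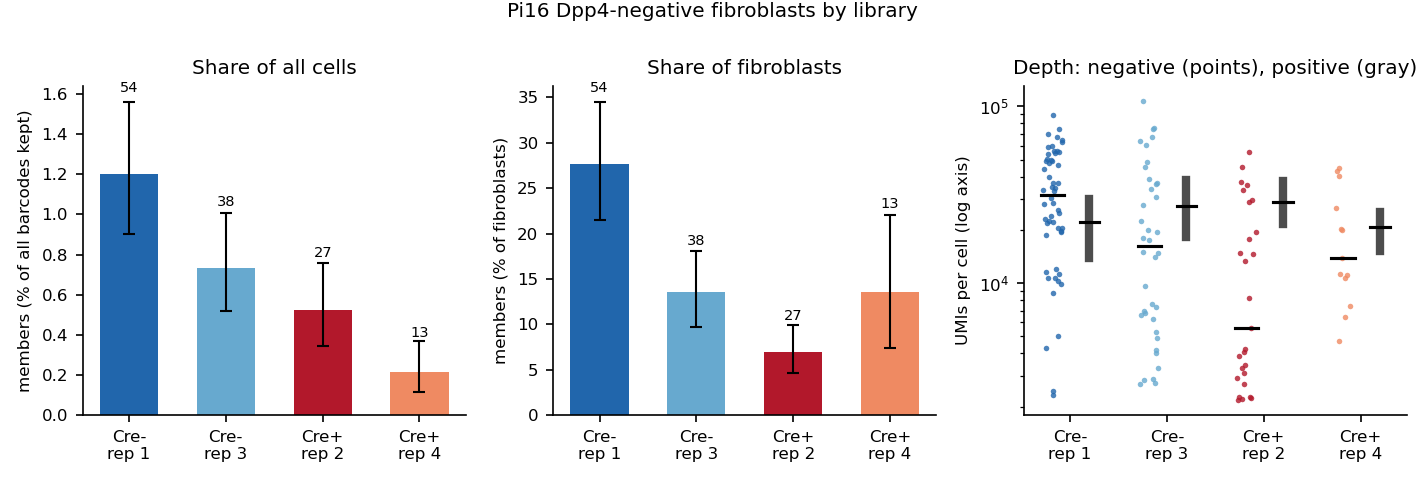
Left and middle, the Pi16 Dpp4-negative fibroblasts of each library as a percentage of all barcodes kept and of all fibroblasts, with exact 95% binomial intervals as error bars and the number of cells above each bar. Right, the UMIs of each cell on a log axis as points, with the median as a line, beside the interquartile range (gray bar) and median of the Pi16 Dpp4-positive fibroblasts. The share of all barcodes falls from 1.20% in Cre- replicate 1 to 0.215% in Cre+ replicate 4, and the cells of Cre+ replicate 2 reach a median of only 5605 UMIs.

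Depth differed between the libraries and bears on the rule, since a shallow cell can miss a Pi16 or Dpp4 molecule that it holds. The median was 31722, 16273.5, 5605 and 13923 UMIs per cell, against 22090, 27151, 28919 and 20780 in the positive fibroblasts. In Cre+ replicate 2, 13 of 27 cells were under 5000 UMIs, whereas in Cre- replicate 1 only 3 of 54 were. The positive cells carried a median of 26, 22, 57 and 36 UMIs of Pi16 and Dpp4 together. When each cell was thinned to 2000 UMIs, 22%, 30.9%, 16.3% and 19.3% of the positive cells had no such UMI left. How many shallow negative cells held Pi16 or Dpp4 RNA that was not read was not tested. Of the 132 cells, 92 had at least 10000 UMIs. Because the sums below count every UMI, deep cells weigh more, and the deepest cell alone gave 4.81%, 11%, 13.8% and 17.2% of its library's member UMIs.

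The thresholds of the rule were not near most cells. The lowest matrix sum inside it was 23.1, 31.1, 24.3 and 31.0 UMIs per 10000, and the highest of the cells just outside it was 18.2, 16.6, 18.4 and 0. The median inside was 335, 300.0, 408 and 333. On the epithelial side the highest value inside was 4.68, 4.77, 4.39 and 2.33 UMIs per 10000, and the lowest outside was 5.23, 5.52 and 15.6, with no cell kept out in Cre+ replicate 4. A total of 64 cells had no epithelial UMI, and 22 passed the Pdgfra and Lum condition with 1 UMI. No member barcode occurred among the members of another library.

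The cells fell into 5 clusters by their own expression, after the mean of each library had been removed. These clusters are a description of the cells, and no test was made between them. Cluster 1 held 43 cells, 26, 10, 6 and 1 by library, and had high collagen and matrix genes. Its summed level was 18337 CPM for Col1a1, 4725 CPM for Postn (periostin), 3618 CPM for Col12a1 and 1190 CPM for Lrrc15, a membrane protein of tumor myofibroblasts, which had a UMI in 100% of the cells. Acta2, smooth muscle actin, reached 1397 CPM in 72.1% of them. Its leading genes by fold against the other cells were Clstn2, F5, Aqp2, Cd53 and Sbspon, each with most of its UMIs from a single library (from 73.3% for Aqp2 to 98.2% for Cd53). None of these is among the 9 myofibroblast markers, of which Postn, Thbs2, Col12a1 and Lrrc15 were at least 2-fold higher, so it is called the Postn Lrrc15 cluster.

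Cluster 2, with 34 cells (7, 11, 9 and 7), was adventitial-like although the rule had excluded Pi16 and Dpp4. Clec3b, which encodes tetranectin, was its leading gene, at 835 CPM against 1.71 CPM in the other cells, and 6 of 8 adventitial markers were at least 2-fold higher (Cd34, Ly6a, Ly6c1, Clec3b, Sema3c and Cd248). Cd34 had a UMI in 97.1% of these cells. Complement C3 stood at 2019 CPM, C4b at 959 CPM, and Cxcl12, the chemokine that binds Cxcr4, at 2105 CPM. Dcn (decorin) was 11830 CPM, against 2050 CPM in the Postn Lrrc15 cluster.

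Cluster 3, with 26 cells (13, 7, 4 and 2), went against the fibroblast label. None of 8 fibroblast markers outside the rule was at least 2-fold higher in it, as in cluster 4, but here Thy1 stood at 6.14 CPM, and Col1a1 was 189 CPM with a UMI in 65.4% of the cells. Its median matrix sum was 42.4 UMIs per 10000, against 495 in the Postn Lrrc15 cluster. Acta2 was also high in it, at 1591 CPM in 80.8% of cells, so that it gave 1297 of the 5068 Acta2 UMIs of the negative cells. Gata3, a luminal transcription factor, had a UMI in 73.1% of its cells, but no background share is given for that gene. Sox10, a transcription factor of neural crest and mammary epithelial cells, had a UMI in 80.8% of them. Of the 26 cells 21 had a UMI of Sox10 or Trp63. In the epithelial cells of the same libraries, Sox10 had a UMI in 70.2%, 76.1%, 72.1% and 67.6%, and in the positive fibroblasts in 2.84%, 3.29%, 3.60% and 0%. Milk and secreted genes were high in it, with Csn3 at 5080 CPM, Chil1 at 5387 CPM and Spp1 (osteopontin) at 36462 CPM, and its leading genes were Dmp1, Chil1, Cst6, Tinagl1 and Scrg1, with 66.9% (Tinagl1) to 96.4% (Dmp1) of their UMIs from a single library. These varied between mice, since Spp1 was 49185, 3495, 10695 and 11.4 CPM within the cluster by library, and 1 cell of Cre+ replicate 4 held 96.1% of that library's Krt14 UMIs. Krt5, Krt14 and Cdh1, of 8 epithelial genes, were also at least 2-fold higher in it. So were 4 of 5 cycling genes (Mki67, Top2a, Cdk1 and Birc5) and 3 of 8 pericyte and smooth muscle genes (Mcam, Kcnj8 and Myh11). The cluster is given no cell type name, and the main comparisons are also given without cells that had a UMI of Sox10 or Trp63.

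Cluster 4, with 22 cells (2, 10, 8 and 2), had a median of only 4473.5 UMIs. Of 9 myofibroblast markers 4 were at least 2-fold higher in it, Acta2 at 3362 CPM, Tagln at 4133 CPM, Tnc (tenascin C) at 3438 CPM and Cthrc1 at 1740 CPM, while its leading genes were Mmp9, H19, Gjb5, Ndufa4l2 and Bnip3. For several of these most UMIs came from a single library, 98.3% for Ndufa4l2 and 100% for Bnip3. Also at least 2-fold higher in cluster 4 were Ccl2 and Ccl7 of 8 inflammatory genes and Krt19 and Cldn3 of 8 epithelial genes. So were Cspg4 of 8 pericyte and smooth muscle genes and Anxa3 of 8 adventitial markers. Cluster 5, with 7 cells (6, 0, 0 and 1), was led by Pappa2, Myoc, Prlr (the prolactin receptor), Calcb and Dhrs9, with Dcn at 19742 CPM, Esr1 at 170 CPM and Thy1 at 0. At least 2-fold higher in it were Fbln1 of 8 fibroblast markers outside the rule, Cd34 and Sema3c of 8 adventitial markers and C3 of 8 inflammatory genes. So were Cldn7 of 8 epithelial genes, Kdr of 5 endothelial genes, and Abcc9 and Des of 8 pericyte and smooth muscle genes. Neither cluster 4 nor cluster 5 was named as a cell type. At a coarser resolution the Postn Lrrc15 cluster joined cluster 4 and the adventitial-like cluster joined cluster 5, and the same 26 cells of cluster 3 stayed together at each of 3 resolutions.

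**Figure D2:**
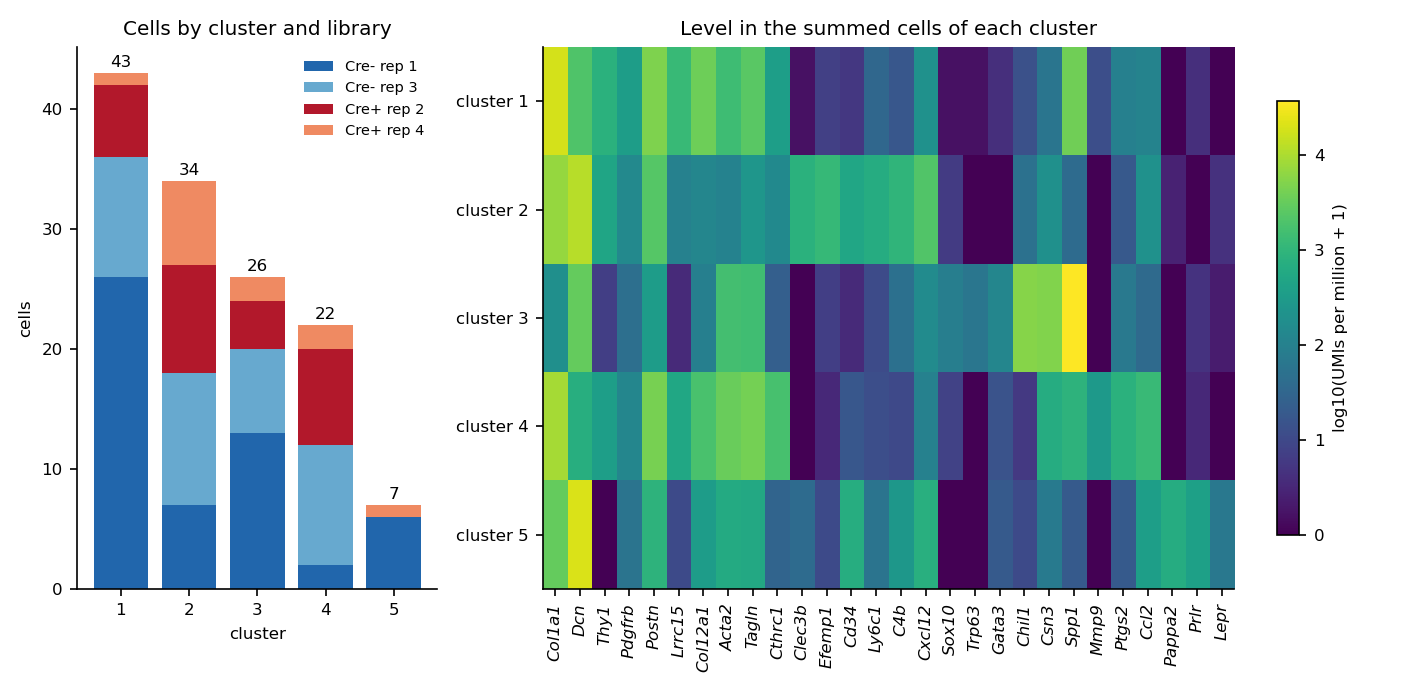
Left, the number of Pi16 Dpp4-negative fibroblasts in each of 5 clusters, stacked by library. Right, the level of each named gene in the summed cells of each cluster, as log10(UMIs per 1000000 + 1), from dark (low) to yellow (high). Clec3b is highest in cluster 2 (835 CPM), Col1a1 is lowest in cluster 3 (189 CPM), and Lrrc15 is high in clusters 1 and 4.

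Shares of cells with a UMI were then read at an equal depth of 2000 UMIs per cell, in cells assigned to their class at full depth. Acta2 was seen in 33.3%, 57.9%, 55.6% and 23.1% of the negative cells (64.8%, 63.2%, 70.4% and 38.5% at full depth), against 4.96%, 13.6%, 12.5% and 10.8% of the positive cells. In immune cells, which should lack it, the thinned shares were 1.34%, 1.48%, 1.18% and 2.09% at median depths of 9508, 14492, 12742 and 17785 UMIs. Each library's negative cells stood above its positive cells. Clec3b ran the other way, at 5.56%, 23.7%, 22.2% and 53.8% of the negative cells against 66.0%, 61.7%, 71.5% and 72.3% of the positive cells. Its full-depth shares were 11.1%, 28.9%, 33.3% and 69.2% in the negative cells, and the thinned shares of immune cells were 0.0703%, 0.265%, 0.504% and 0.201%.

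The negative cells were next compared with the positive cells of the same mouse. Of 10781 genes tested, 907 passed an adjusted p of 0.05 in edgeR's quasi-likelihood test with the mouse as a block, which is 8.41% of the genes, with 374 higher (3.47%) and 533 lower (4.94%) in the negative cells. Without the block the count was 588. The classes were split by Pi16 and Dpp4 in the same cells, so genes that go with these adventitial markers were chosen along with them. Without the cells that carried Sox10 or Trp63, 165 genes were higher (1.63% of 10149) and 312 lower (3.07%), of which 119 and 294 were also called with all cells. In this comparison, an equal depth of 2000 UMIs means that the whole rule was applied anew to thinned counts. It then chose 69, 100, 88 and 33 negative cells, which are not the same set of cells. Of 3653 genes tested there, 172 were higher and 229 lower.

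Several myofibroblast genes were higher in the negative cells. Of 18 tested genes of that list 7 were called higher and none lower, with a median log2 difference of 0.76 against -0.01 over all genes tested. Acta2 measured 1144, 2451, 1003 and 615 CPM in the negative cells and 172, 543, 423 and 294 CPM in the positive cells. Every mouse was higher in its negative cells, by 1.75 ± 0.29 (SE) on the log2 scale (edgeR adjusted p = 0.0038), a call that was lost with doublet calls removed. In Cre+ replicate 4, however, 1 cell held 122 of the 160 Acta2 UMIs, and without it the negative cells were at 173 CPM, below the positive cells of that mouse. Tpm2, a tropomyosin that lies along the actin filament, rose by 1.98 ± 0.25 (SE), from 93.5, 278, 208 and 94.7 CPM to 592, 1232, 495 and 399 CPM. Myl9, a regulatory light chain of myosin, rose by 1.53 ± 0.22 (SE), from 41.3, 96.2, 87.1 and 50.1 CPM to 185, 356, 196 and 92.2 CPM. The other called genes were Tpm1 (0.89), Cnn1 (calponin, 3.69), Actg2 (3.07) and Inhba, a subunit of activin (1.52), in log2 units. Cnn1 had no UMI in either class in Cre+ replicate 4, and Actg2 was lower in the negative cells of Cre+ replicate 2 (2.51 against 12.3 CPM).

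The matrix genes of the same list were not called with all cells. Postn was at 3268, 3559, 2324 and 1701 CPM in the negative cells and 2818, 3572, 3291 and 4211 CPM in the positive cells, and the classes overlapped. Col12a1 (log2 difference 0.70, edgeR adjusted p = 0.12) and Lrrc15 (0.76, edgeR adjusted p = 0.15) were called when the cells with Sox10 or Trp63 were left out (1.11 and 1.20, with edgeR adjusted p = 0.025 and 0.047), and also under the upper limits and at an equal depth of 2000 UMIs. Without the Sox10 or Trp63 cells the test called 7 genes of the list, with Tagln, Col12a1 and Lrrc15 in place of Tpm1, Cnn1 and Actg2. The list's count of higher genes was 4 without Cre- replicate 1, 4 without Cre- replicate 3 (with 1 gene lower), 4 with doublet calls removed and 4 without the mouse block. At an equal depth of 2000 UMIs, in the cells that the rule chose from thinned counts, it was 12 of 16, where 172 of 3653 genes tested were higher.

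Promoters of the called myofibroblast genes were read, since these genes were called higher in the same comparison. RefSeq promoter entries (GRCm38.p6) matched 6 of the 7 genes, all but Actg2, and the 250 bases before the start site were searched on both strands for the CArG box, the site of serum response factor, and for CATTCC, the core of the site that TEAD factors bind. Only exact matches were counted, for the CArG box CC, then 6 bases of A or T, then GG. An exact CArG box is in 1.47% of 32851 such promoters and CATTCC in 12.6%. Myl9 (chr2:156775214-156775463, plus strand) holds a CArG box that begins 161 bases before the start, and Acta2 (chr19:34255374-34255623, minus strand) and Tpm1 (chr9:67049214-67049463, minus strand) each hold CATTCC on the opposite strand. Tpm2, Cnn1 and Inhba hold no exact match of either motif and are not shown. Capitals mark the exact matches, which are a description of the letters only. Sites that differ from the CArG pattern by a base were neither counted nor marked, and the Acta2 and Myl9 sequences hold such sites.
Myl9: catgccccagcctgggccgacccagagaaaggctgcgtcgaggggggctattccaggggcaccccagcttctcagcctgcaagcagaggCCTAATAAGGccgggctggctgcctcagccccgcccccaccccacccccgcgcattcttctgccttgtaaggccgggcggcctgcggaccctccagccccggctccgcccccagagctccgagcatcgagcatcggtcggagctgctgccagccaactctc
Acta2: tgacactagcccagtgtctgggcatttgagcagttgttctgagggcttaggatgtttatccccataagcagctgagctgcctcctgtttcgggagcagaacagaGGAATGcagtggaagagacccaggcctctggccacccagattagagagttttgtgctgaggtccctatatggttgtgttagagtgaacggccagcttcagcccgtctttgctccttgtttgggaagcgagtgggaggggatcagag
Tpm1: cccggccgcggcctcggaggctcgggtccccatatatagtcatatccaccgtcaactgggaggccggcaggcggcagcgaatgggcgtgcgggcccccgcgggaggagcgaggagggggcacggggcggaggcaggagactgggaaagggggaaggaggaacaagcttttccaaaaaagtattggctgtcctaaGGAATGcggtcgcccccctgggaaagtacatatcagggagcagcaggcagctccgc

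Adventitial genes were lower, as the choice of cells makes likely, and are given as a description. Of 19 tested genes 16 were called lower and none higher, with a median log2 difference of -2.48. Cd55, which shields cells from complement, was at 21.5, 15.4, 25.1 and 7.68 CPM against 307, 245, 378 and 265 CPM (log2 difference -4.07 ± 0.21 SE). Sema3c, a secreted semaphorin, was at 24.8, 13.4, 70.4 and 49.9 CPM against 411, 332, 672 and 350 CPM. The gap between the classes exceeded the spread among mice in both. Cd34, Ly6a and Ly6c1 stayed present, for example Ly6a at 561, 412, 704 and 1191 CPM, and the adventitial-like cluster held 283 of 373 Cd34 UMIs and 382 of 452 Ly6c1 UMIs.

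Complement genes were lower as well, with 8 of 11 called lower. C3, the central component of the cascade, was at 268, 296, 844 and 1344 CPM against 2165, 1787, 1899 and 1936 CPM (log2 difference -1.89 ± 0.38 SE, edgeR adjusted p = 0.011). C4b and Cfb followed, at log2 differences of -2.03 and -2.49. In C3 and C4b both Cre+ libraries stood nearer to their positive cells than both Cre- libraries did. The interaction test given below called no gene (edgeR adjusted p = 0.57 for C4b). The list's median log2 difference was -1.11, and -0.76 without the Sox10 or Trp63 cells. Without those cells Cfb, Serping1 and Cd55 remained called and C3 and C4b did not. The count was also 3 without Cre- replicate 1 and without the block, and the C3 call was lost in both and without Cre- replicate 3. The 1 gene called higher, Cfd, had UMIs in 2 cells only.

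Among signaling genes, Ptn (pleiotrophin, a heparin-binding growth factor) was higher by 2.74 ± 0.28 (SE) on the log2 scale, at 216, 470, 440 and 822 CPM against 53.4, 30.5, 77.8 and 120 CPM. All 4 mice showed it. Wnt5a, a non-canonical Wnt ligand, was at 207, 64.8, 72.9 and 30.7 CPM against 55.8, 38.5, 16.6 and 20.7 CPM (log2 difference 1.39 ± 0.25 SE), and Wnt2 was lower by 2.97 on the log2 scale in CPM of 12.4, 15.4, 27.6 and 15.4 against 108, 130, 170 and 81.1. Of the Wnt and R-spondin list 2 of 14 were higher and 3 lower. Of the TGF-beta family 4 of 15 were lower, all of them receptors or latent binding proteins (Tgfbr2, Tgfbr3, Ltbp1 and Ltbp4), and the 3 ligands Tgfb1, Tgfb2 and Tgfb3 were not called. Tgfbr2, the type II receptor, was at 357, 307, 286 and 323 CPM against 1067, 778, 1036 and 759 CPM.

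Inflammatory and interferon genes were mostly lower or not called. Of 19 inflammatory genes 6 were lower (Il6, Il33, Cxcl1, Has2, Tnfaip6 and Ptx3) and Cxcl5, a neutrophil chemokine, was higher. Cxcl5 was at 203, 199, 37.7 and 0 CPM against 56.7, 51.7, 7.21 and 3.27 CPM, with 0 UMIs in Cre+ replicate 4. Without the Sox10 or Trp63 cells 1 of the 6 stayed lower, and without the block no gene of the list was called. The count of lower genes was 2 without Cre- replicate 1 and 7 without Cre- replicate 3. It was 1 without Cre+ replicate 2 and 3 without Cre+ replicate 4. In each of these Ptx3 was called lower and Cxcl5 higher. Of 13 type I interferon genes 5 were lower, among them Ifit1 (log2 difference -2.28) and Ifi27l2a (-1.76), and that count was 2 at an equal depth of 2000 UMIs.

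Hypoxia and glycolysis genes had 4 of 12 called higher (Slc2a1, Pgk1, Egln3 and Tpi1), with a median log2 difference of 0.69. Without the Sox10 or Trp63 cells 0 of 12 were called, with a median of 0.41. The count was also 0 under the upper limits and at an equal depth. It was 1 without Cre- replicate 1, without Cre- replicate 3 and without the block, and 2 without Cre+ replicate 4. Fibroblast genes outside the rule had 6 of 20 lower (Fap, Fstl1, Fbln1, Twist1, Prrx1 and Loxl1), and none without Cre- replicate 1. Without the Sox10 or Trp63 cells 2 were lower and Col6a3 was higher, and at an equal depth 5 were lower and 5 higher (Col5a2, Col6a1, Col6a2, Col6a3 and Bgn). The basement membrane list had 5 of 11 lower and Col4a5 and Agrn higher, neither of which was called without the Sox10 or Trp63 cells. At an equal depth Col4a1 and Col4a2 were called higher in their place, and 4 of 8 were lower. Nid1 (nidogen) was at 355, 482, 339 and 488 CPM against 1112, 909, 1093 and 744 CPM. Of 13 metalloproteinases and inhibitors Mmp13 was higher and Mmp19, Timp2 and Adamts5 were lower. The parenchymal list of 14 had Sparcl1 and Enpp2 higher and Gpc3 and Podn lower. None of 14 cell cycle genes was called, by edgeR at an adjusted p of 0.05.

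**Figure D3:**
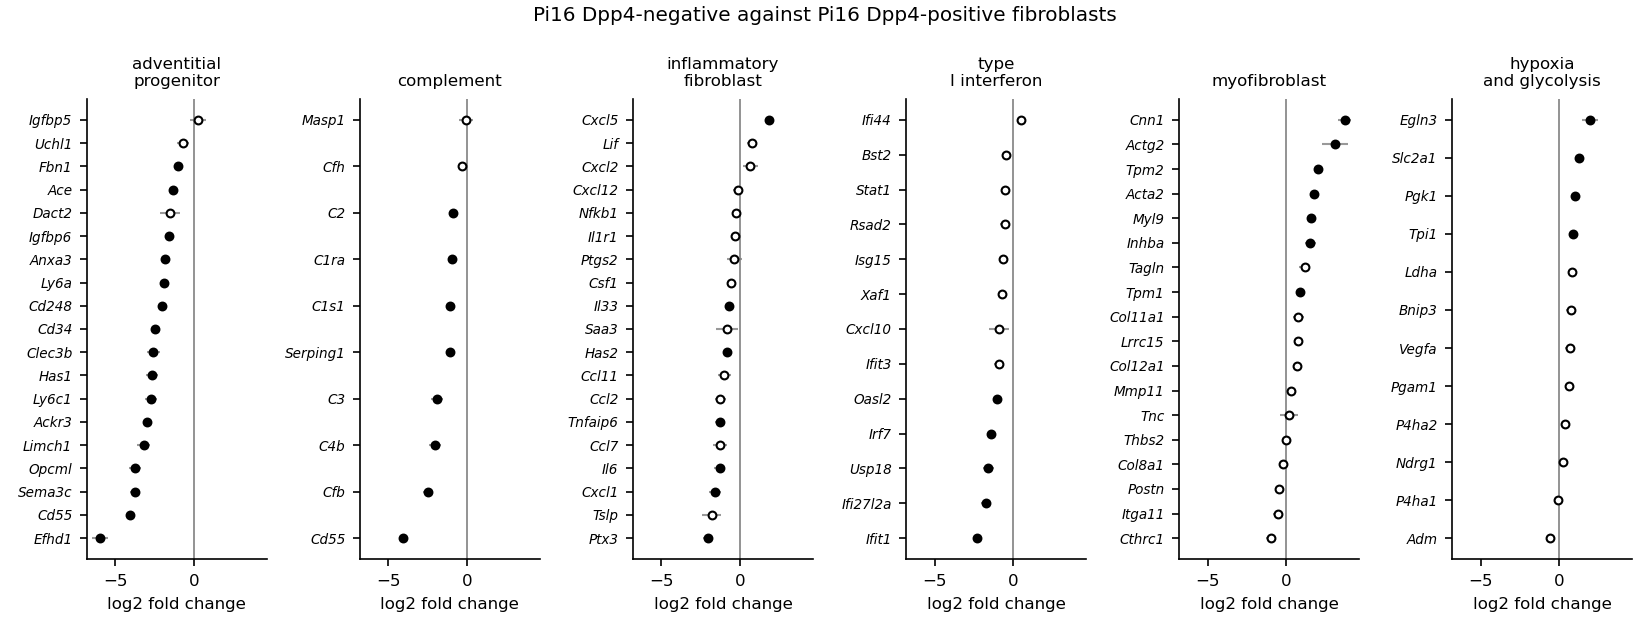
The log2 fold change of Pi16 Dpp4-negative against Pi16 Dpp4-positive fibroblasts for the genes of 6 lists, with standard errors as bars over 4 mice in a fit blocked by mouse. Filled points have an edgeR adjusted p under 0.05. Adventitial genes lie to the left of 0 (16 of 19 called lower) and 7 of 18 myofibroblast genes are called to its right, and Cfd is left out of the complement panel since it came from 2 cells.

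The genes of largest change, named by rule whether or not a list holds them, were partly of another kind. The 10 named higher genes were Il17b, Cpe, Krt14, Tinagl1, Slpi, Clca3a2, Arc, Thrsp, Emid1 and Perp. Il17b, a member of the interleukin-17 family, was at 59.7, 9.26, 7.54 and 142 CPM against 0.302, 0.535, 0.267 and 1.09 CPM. Several of these are epithelial genes, such as Krt14, a basal keratin, Slpi, a secreted protease inhibitor, and Perp, a desmosome protein. The negative sums differed widely between mice in all 10. Of the 10, Il17b, Krt14, Tinagl1, Clca3a2, Arc and Thrsp were no longer tested without the Sox10 or Trp63 cells, Cpe, Slpi and Emid1 were still called higher, and Perp was not (edgeR adjusted p = 0.33). The 10 named lower genes were Efhd1, Akr1c18, Tek, Ackr1, Scara5, Cd55, Cadm3, Aldh1a3, Sema3c and Opcml, and all 10 remained lower without those cells. Scara5, a ferritin receptor, was at 11.3, 7.20, 7.54 and 23.0 CPM against 193, 132, 194 and 193 CPM.

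**Figure D4:**
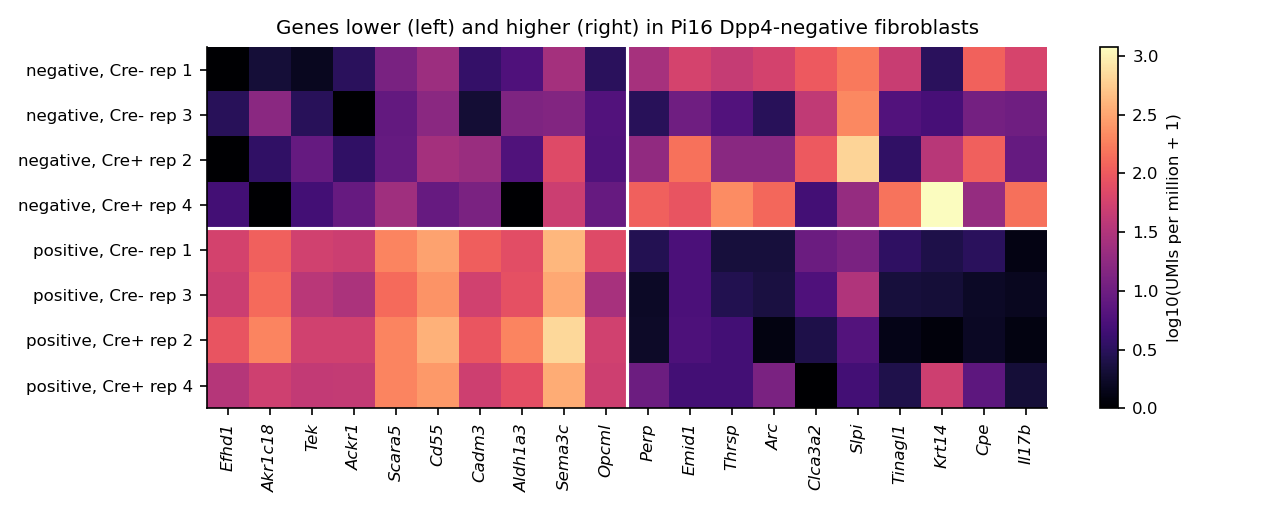
The 10 genes named lower (left of the white line) and the 10 named higher (right) in Pi16 Dpp4-negative fibroblasts, as log10(UMIs per 1000000 + 1) in the summed cells of each class and library. The lower genes are dark in all 4 negative rows, and the higher genes vary between the negative rows, with Krt14 bright in Cre+ replicate 4 (1194 CPM).

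Markers of other cells moved with these results. The 12 macrophage genes summed to 17829, 3560, 4247 and 2185 CPM in the negative cells against 931, 1234, 286 and 716 CPM in the positive cells, with Spp1 the most abundant (17287, 2559, 3307 and 7.68 CPM), and Apoe, Fcer1g and Spp1 were called higher. At an equal depth of 2000 UMIs, where the rule and its limit on Ptprc were applied to thinned counts, 5 of 7 tested were higher (Lyz2, C1qa, C1qb, Apoe and Spp1). Among the members, Lyz2, C1qa, C1qb, C1qc and Adgre1 were at least 2-fold higher in cluster 3 than in the other negative cells. Adgre1, a defining macrophage gene, was at 0.538, 4.12, 2.51 and 0 CPM over all negative cells, Lyz2 was at 31.2, 132, 62.8 and 11.5 CPM, and the same list reached 45411, 47836, 55153 and 39597 CPM in immune cells. The 12 epithelial genes outside the rule summed to 2133, 283, 2061 and 2400 CPM against 128, 120, 103 and 157 CPM, with Trf the most abundant, and 4 of 9 tested were called higher but 0 of 3 without the Sox10 or Trp63 cells. Csn3, the most abundant of 7 milk genes, was at 2142, 450, 538 and 42.2 CPM and was called higher. Without the Sox10 or Trp63 cells Csn3, Fcer1g and Spp1 were still called higher. Of 7 tested pericyte and smooth muscle genes 3 were higher (Cspg4, Mcam and Myh11) and 2 lower, with Myh11 at 20.4, 11.3, 55.3 and 3.84 CPM, and Higd1b was at 0. Fabp4, an adipocyte gene, was called higher, at 51.7, 52.5, 55.3 and 972 CPM. Without the top cell of each library it was at 13.9, 15.7, 2.63 and 625 CPM. Adipoq, a defining adipocyte gene, had 2 UMIs in all. T and B cell genes summed to 15.1, 7.20, 0 and 3.84 CPM, endothelial genes to 86.1, 25.7, 143 and 15.4 CPM, and 4 of 4 mesothelial genes were at 0. With the epithelial limit at 2 per 10000, the epithelial calls were 0 of 6, the macrophage calls 1 of 10, the hypoxia calls 1 of 12 and the lower complement calls 5 of 11, while 7 of 18 myofibroblast genes were called higher. With doublet calls removed these counts were 3 of 6, 2 of 10, 4 of 12, 7 of 10 and 4 of 18. Beyond these settings, the part of such RNAs in the differences above was not tested.

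The genotypes were compared within the negative cells, over 2 Cre- and 2 Cre+ sums. Frmd8 was at 25.3, 26.8, 12.6 and 7.68 CPM, from 47, 26, 5 and 2 UMIs, lower in both Cre+ libraries but not called (log2 fold change -1.28 ± 0.47 SE, edgeR adjusted p = 0.81). In the positive cells it was at 12.7, 18.6, 15.3 and 13.6 CPM, where the genotypes overlapped. It was lower in both Cre+ libraries in immune cells (30.6, 27.0, 21.0 and 16.2 CPM) and in epithelial cells (24.8, 24.9, 5.80 and 11.2 CPM). No gene of 7592 passed an edgeR adjusted p of 0.05 (0.0% called), while 450 had an unadjusted p under 0.05 and DESeq2 called 18. Both Cre+ sums were higher than both Cre- sums in 17.4% of genes and lower in 19.0%.

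The myofibroblast list stood apart from that background only as a description. Of its 18 tested genes 12 were lower in both Cre+ libraries and none higher in both, with a median log2 fold change of -1.02 against 0.01 over all genes tested. Tnc was at 891, 2362, 188 and 19.2 CPM (log2 fold change -3.92 ± 0.97 SE, edgeR adjusted p = 0.63), with 77.3% of the UMIs of Cre+ replicate 2 and all 5 of Cre+ replicate 4 in 1 cell each. Lrrc15 was at 745, 650, 271 and 104 CPM and Col12a1 at 2074, 2450, 678 and 534 CPM, with no overlap of the genotypes in either. Acta2, at 1144, 2451, 1003 and 615 CPM, was lower in both Cre+ libraries by a small margin. The count was 13 of 18 without the Sox10 or Trp63 cells, where 20.6% of all genes were lower in both. It was 11 of 18 over cells with at least 10000 UMIs (18.4% of all genes). Under the study's upper limits on genes and UMIs it was 6 of 14 (15.9% of all genes).

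The complement list ran the other way, with 7 of 10 genes higher in both Cre+ libraries, none lower in both and a median of 0.95 on the log2 scale. C4b was at 78.6, 150, 503 and 553 CPM (log2 fold change 2.25 ± 0.39 SE, edgeR adjusted p = 0.54) and C3 at 268, 296, 844 and 1344 CPM. Cxcl12, from the inflammatory list, was at 355, 256, 1163 and 1494 CPM, and Ly6c1, from the adventitial list, at 80.7, 101, 276 and 361 CPM. The genotypes did not overlap in any of the 4 genes, which for C4b and Ly6c1 was also a condition of the naming rule below. For complement the count was 5 of 11 without the Sox10 or Trp63 cells and 3 of 9 under the upper limits, where 16.7% and 14% of all genes were higher in both. For the adventitial list it was 5 of 14 higher in both, and 0 of 12 under the upper limits. Hypoxia genes had 4 of 12 lower in both, and from 2 of 11 (doublet calls removed) to 8 of 11 (epithelial limit of 2) in other settings, where 18.8% and 20.7% of all genes were lower in both. Inflammatory genes had 6 of 18 lower and 1 higher. Without the Sox10 or Trp63 cells 3 of 18 were lower, where 20.6% of all genes were lower in both. Under the upper limits 2 were lower and 3 higher of 15, where 15.9% of all genes were lower and 14% higher in both.

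These lists move with the make-up of the sums. The Postn Lrrc15 cluster gave 56.4%, 44.7%, 17.9% and 7.64% of the UMIs of the negative cells. The adventitial-like cluster gave 7.07%, 16.6%, 43.5% and 37.2%. Cluster 3 gave 31.0%, 3.47%, 29.4% and 33.7%, and cluster 4 gave 0.402%, 35.3%, 9.13% and 17.3%. The genotypes overlapped in the shares of clusters 3 and 4. Within the adventitial-like cluster C3 was at 2412, 1505, 1835 and 2673 CPM, where the genotypes overlapped, and C4b at 768, 824, 1085 and 1218 CPM, where they did not. Within the Postn Lrrc15 cluster Col12a1 was at 3566, 3991, 2837 and 1006 CPM and Postn at 5365, 3074, 5183 and 5381 CPM, the last value of each from 1 cell. In Cre+ replicate 2 this cluster held 6 cells, 1 of 55006 UMIs and the others of 3851 or fewer. The values of that library here, and its 17.9%, thus rest mainly on 1 cell. Whether the make-up, the level within cells or both set the differences between the sums was not tested.

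**Figure D5:**
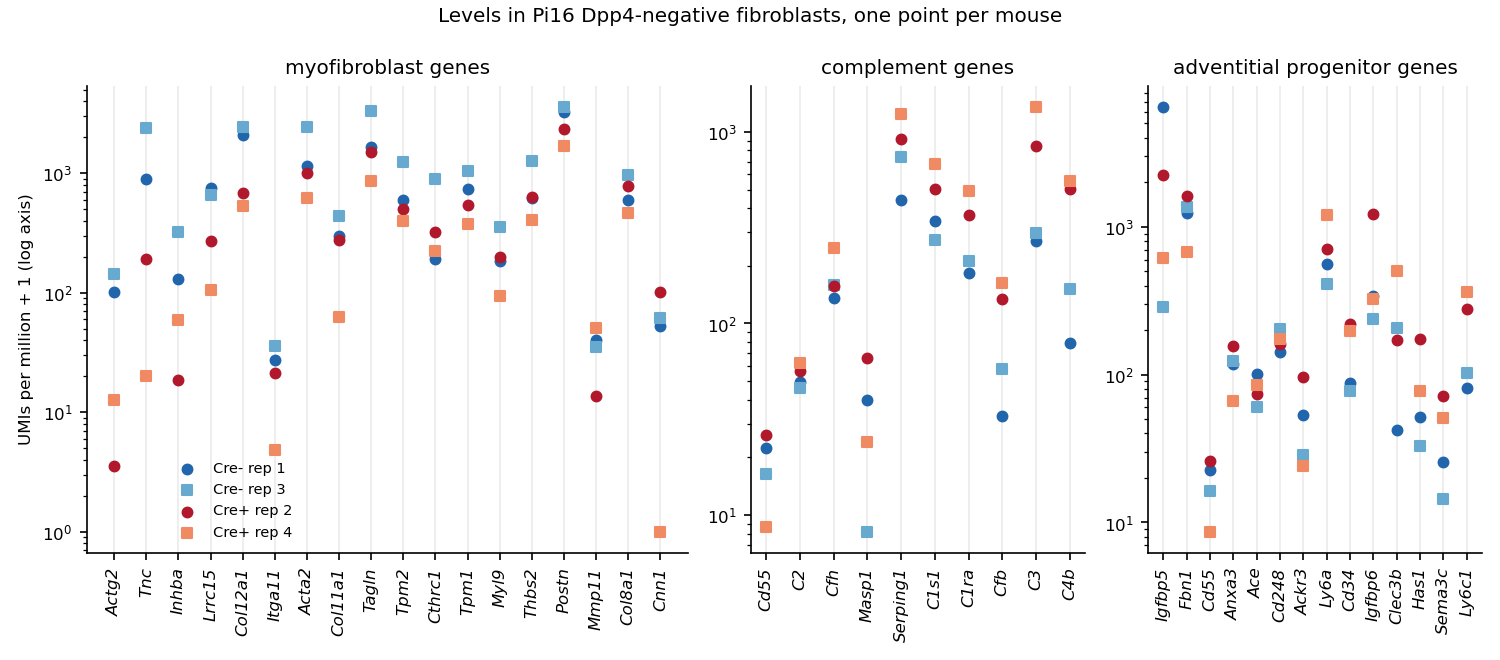
Levels of the tested myofibroblast, complement and adventitial genes in the summed Pi16 Dpp4-negative fibroblasts of each mouse, as UMIs per 1000000 + 1 on log axes, with Cre- in blue and Cre+ in red and orange. The Cre+ points lie below both Cre- points in 12 of 18 myofibroblast genes and above both in 7 of 10 complement genes, and no gene passed an edgeR adjusted p of 0.05.

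The genes of lowest p whose genotypes did not overlap were named without being called. Those higher in Cre+ were C1qtnf7, Itih5, H2-Q7, Ly6c1 and C4b. C1qtnf7, a secreted protein related to C1q, was at 4.84, 6.17, 77.9 and 53.8 CPM (log2 fold change 3.61 ± 0.40 SE, edgeR adjusted p = 0.30), from 9, 6, 31 and 14 UMIs. Itih5, a hyaluronan-binding matrix protein, was at 39.8, 47.3, 219 and 211 CPM (2.33 ± 0.26 SE, edgeR adjusted p = 0.30). The genotypes did not overlap in either gene, as the rule that named them required. The positive cells held 32.0, 40.6, 47.0 and 64.2 CPM of C1qtnf7 and 474, 408, 461 and 324 CPM of Itih5. Under the study's upper limits the log2 fold changes were smaller, at 1.22 for Itih5, 1.12 for C4b, 0.70 for Ly6c1 and 0.28 for H2-Q7, and C1qtnf7 was not tested. H2-Q7 was at 0.96 with the epithelial limit of 2. Those lower in Cre+ were Actg2, Sema7a, Rian, Ankrd1 and Col7a1. Sema7a, a membrane semaphorin, was at 59.2, 76.1, 10.1 and 11.5 CPM, and Rian, a noncoding RNA of the Dlk1 region, at 174, 223, 62.8 and 42.2 CPM, with a log2 fold change of -1.87 that was -0.34 under the upper limits. Ankrd1 was at 154, 109, 12.6 and 0 CPM, and 1 cell held 97.9% of its UMIs in Cre- replicate 1 and 1 cell held all 5 in Cre+ replicate 2. Without the top cell of each library it was at 3.35, 83.6, 0 and 0 CPM.

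Hormone receptor and coat color genes were followed in every library. Esr1, which encodes estrogen receptor alpha, was at 11.3, 19.6, 40.2 and 34.6 CPM in the negative cells, higher in both Cre+ libraries but not called (log2 fold change 1.35 ± 0.43 SE, edgeR adjusted p = 0.76, and 0.21 under the upper limits). Against the positive cells, at 54.9, 38.0, 54.0 and 55.5 CPM, it was lower (log2 difference -1.24 ± 0.28 SE, edgeR adjusted p = 0.021), but the call was lost in 7 other settings. The log2 difference was -0.42 at an equal depth of 2000 UMIs (edgeR adjusted p = 0.62), -0.49 under the upper limits (edgeR adjusted p = 0.39) and -0.76 without Cre- replicate 1 (edgeR adjusted p = 0.14). In the other 4 (without Cre- replicate 3, without the Sox10 or Trp63 cells, with the epithelial limit of 2 and without the block) the log2 difference was -1.32, -1.02, -1.20 and -1.27, with an edgeR adjusted p of 0.0501 to 0.0609. Pgr, the progesterone receptor, had 0, 1, 3 and 3 UMIs and was not tested between genotypes. The nonagouti gene a, which sets coat color, was at 60.3, 6.17, 427 and 11.5 CPM, and 1 cell held 94.1% of its UMIs in Cre+ replicate 2, with 28.4 CPM without that cell. The genotypes overlapped in a.

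Whether the genotype acted differently in negative and positive cells was tested as an interaction. None of 10781 genes passed an edgeR adjusted p of 0.05 (0.0%), 471 had an unadjusted p under 0.05 and DESeq2 called 2. The lowest adjusted p was 0.12, for H2-Q7, a nonclassical class I gene, at 22.1, 30.9, 108 and 88.3 CPM in the negative cells and 37.1, 57.5, 18.9 and 28.3 CPM in the positive cells. No gene is therefore called particular to the negative cells in its response to genotype.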

How the data were processed

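Droplet libraries (10x Genomics 3' kit, v3) were made from sorted cells of 4 mouse tumors. As deposited, the values were unnormalized UMI counts of each gene in each barcode. The authors made them with Cell Ranger 6.1.2 or, for replicate 4, what appears from the file headers to be Cell Ranger 4. The submitters' processing notes name hg38 although the gene IDs are mouse Ensembl IDs, so the build is uncertain and no coordinates are given for expression. Members were chosen by the rule in the text. Members and gene lists were chosen with earlier results of these data known.

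Counts were summed per library and class and tested with edgeR 4.0.16 (TMM, filterByExpr, quasi-likelihood) in R 4.3.3. P-values were adjusted by Benjamini-Hochberg across every tested gene. Negative and positive cells of a library come from the same mouse, which was the block, and genes of the rule were left out of that comparison. DESeq2 1.42.0 was an alternative. The labels give the replicates as separate samples without naming the animals. Each library was taken as 1 mouse, and p-values measure the spread between these samples, which may be technical. CPM are UMIs per 1000000 UMIs of the summed cells. Clusters came from Leiden (leidenalg 0.10.2, scanpy 1.11.5) at resolution 0.6 on 10 components of 1000 variable genes. Doublets were called with Scrublet through scanpy and removed only as an alternative (14 members). The study's limits of 5000 genes and 30000 UMIs were read as upper limits and also used only as an alternative. The scripts were tested on counts simulated with the spread estimated from these data. Between genotypes, 4.3% of genes changed by 1 log2 unit and 37.6% of those changed by 2 were called, with 7 false calls. For the interaction these shares were 0% and 25.8%, with 0 false calls. Between classes they were 42.4% and 90.5%, with 13 false calls.

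Named genes were Frmd8, Esr1, Pgr and a. Between genotypes they were up to 10 called genes a direction, or, with fewer than 5 called, the 5 of lowest p whose libraries did not overlap. Between classes they were the 10 called genes of largest change in each direction that moved the same way in all mice. Both rules asked for a mean of at least 20 CPM. Listed symbols Mx1, Aldoa and Ero1a were not matched, and Ccl19 matched more than 1 gene and was not used. Cells of a class other than fibroblasts (immune, epithelial) served as background.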

Additional observations from a re-analysis of the deposited data

How the results depend on the processing

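The count of genes called between genotypes was 0, and was 18 with DESeq2, 250 with no filter on low counts, and 0 to 2 on leaving out 1 library (2 without Cre+ replicate 2). The 907 genes called between negative and positive cells became 1601 with no filter on low counts, 377 under the upper limits, 588 with no replicate block, 401 after thinning (which called 50 of the 374 higher and 188 of the 533 lower genes again) and 477 without cells that had Sox10 or Trp63, an alternative chosen after seeing the data. On leaving out 1 library they ranged from 335 (without Cre- replicate 1) to 836 (without Cre+ replicate 4), with 541 without Cre+ replicate 2. The interaction count of 0 became 2 with DESeq2, 81 with no filter, and 2 to 67 on leaving out 1 library (49 without Cre- replicate 1, 67 without Cre- replicate 3), where the lone sample of a genotype was assumed to vary like the others. The 5 clusters became 3 at resolution 0.3 and 6 at resolution 1.0, where the Postn Lrrc15 cluster split into 29 and 14 cells. The difference in share between genotypes kept its sign in the 8 settings run, from -0.354 to -0.865 percentage points, but the genotypes overlapped after thinning (-0.608). Signs turned for Frmd8 between classes under the upper limits (-0.48), for Pgr between classes with DESeq2 (0.45), under the upper limits (0.89) and on leaving out 1 library (-1.77 to 1.55), and for a between genotypes on leaving out 1 library (-1.57 to 5.12). The cause of these shifts was not tested. No paired analysis of the genotypes was possible because they share no replicate numbers.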

Other observations

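The limit on epithelial RNA kept out 54 cells that met every other condition, 48 of them in Cre- replicate 3. Those 48 had a median of 4355.5 UMIs. Their summed level of Col1a1 was 4956 CPM, against 10990 CPM in the negative cells of that library, and that of Dcn was 588 CPM against 3259 CPM. Csn3, a casein, stood at 8171 CPM against 450 CPM, and Igfbp5 at 2698 CPM against 286 CPM. Krt14 was at 539 CPM with a UMI in 16.7% of the cells, and Sox10 had a UMI in 31.2% of them. Tnc was at 188 CPM against 2362 CPM and Acta2 at 316 CPM against 2451 CPM. The limit used Epcam, Krt8 and Krt18, so their levels in these cells follow from it.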
